A study of Mus musculus with 16 samples.

Results

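A set of 10 genes that carry cholesterol out of cells, store it as ester and release it from lysosomes were followed in mouse liver: Abcg5, Abcg8, Abca1, Abcg1, Scarb1, Soat1, Soat2, Lipa, Npc1 and Npc2. They were taken by gene symbol from a table of 25719 genes, and all 10 were found. Each was described over 4 groups of male mice, whose age at feeding was given as 8 to 12 weeks. WT (C57BL6J) mice received a normal chow diet (NCD, n = 4) or a steatosis-steatohepatitis diet (SSD, n = 5), which is enriched in fat, fructose and cholesterol. Klrk1-/- mice, which lack the activating immune receptor NKG2D in every cell, received NCD (n = 4) or SSD (n = 3). The 16 livers came from separate mice, those on SSD sampled after 3 weeks of feeding, matched for age and sex, and the sources used here did not give whether the genotypes were littermates. RNA was taken from whole liver, so fewer cells of a type and less RNA per cell cannot be told apart.

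The liver is the organ that disposes of the body's cholesterol. ABCG5 and ABCG8 form an obligate pair in the hepatocyte membrane that pumps sterols into bile, whereas ABCA1 and ABCG1 load cholesterol onto high-density lipoprotein (HDL) particles and SCARB1 (SR-BI) takes HDL cholesterol up again. SOAT1 and SOAT2 attach a fatty acid to cholesterol so that it can be stored in droplets or packed into lipoproteins. SOAT2 is the hepatocyte form in mouse liver and SOAT1 is the form best known from macrophages. LIPA, the lysosomal acid lipase, frees cholesterol from esters taken up by the cell, and NPC2 hands it to the membrane protein NPC1 for export from the lysosome. Abca1, Abcg1, Abcg5 and Abcg8 are textbook targets of the oxysterol-sensing liver X receptors (LXR).

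Reads on genes ranged from 19892025 to 28936707 per mouse. The weakest value of any of the 10 genes was 49 reads, for Soat1 in Klrk1-/- NCD mouse 3, and the strongest was 10198 reads. Values are normalized counts, that is, reads divided by 1 factor per mouse. The hepatocyte markers Alb, Ttr and Apob were abundant in all groups. Klrk1 ranged from 20.1 to 71.1 in WT mice and from 0.966 to 8.71 in Klrk1-/- mice, without overlap. Klrk1-/- NCD mice 2 and 3 stood apart from their group in 2 genes. Over all genes only mouse 3 did, with a chi-square per gene of 36.5 to 43.0 against the other mice of its group, where the pairs among mice 1, 2 and 4 had 14.2 to 17.4. Rilpl1, singled out with Gdpd3 after their values were seen, was at 101 and 47.3 in mice 2 and 3, against 591 and 605 in mice 1 and 4, 900 to 950 in Klrk1-/- SSD and 45.6 to 101 in WT mice. Gdpd3 was at 48.5 and 16.2 in them, against 326 and 522 in mice 1 and 4, 229 to 492 in Klrk1-/- SSD and 7.82 to 31.3 in WT mice. Both genes were thus near WT levels in mice 2 and 3, whose Klrk1 (4.98 and 8.71, from 4 and 7 reads) was below all WT mice. Whether these mice differ in genotype or genetic background from the other Klrk1-/- mice was not tested, and each Klrk1-/- NCD value holds both. WT SSD mouse 1 also stood apart over all genes, with a chi-square per gene of 73.15 to 100.8 against its group. Pairs among the other WT SSD mice had 18.81 to 36.07. In WT SSD mouse 1 the summed level of 10 macrophage and Kupffer cell markers was 23880, against 9451 to 17130 in the other WT SSD mice. Values without these mice are given beside the results they change most.

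On the diet, Abcg5 and Abcg8 gained most of the 10 genes in both genotypes, and Abcg1, Scarb1, Soat2 and Lipa also rose in both. In WT mice 7 of the 10 genes rose and none fell, where 34.9% of 13091 genes tested passed the threshold (adjusted p under 0.05), 17.3% with a higher level. In Klrk1-/- mice 7 of the 10 also rose and none fell, against 29.4% of 12904 genes, 13.4% with a higher level. Their median log2 fold change was 0.81 in WT and 0.67 in Klrk1-/- mice, and that of all genes tested was -0.0015 and -0.0020. The lists differed in 2 genes, since Soat1 passed in WT mice and Abca1 passed in Klrk1-/- mice. The 10 genes were chosen with earlier results of these data known, so these counts and shares describe the set and do not test it.

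**Figure D1:**
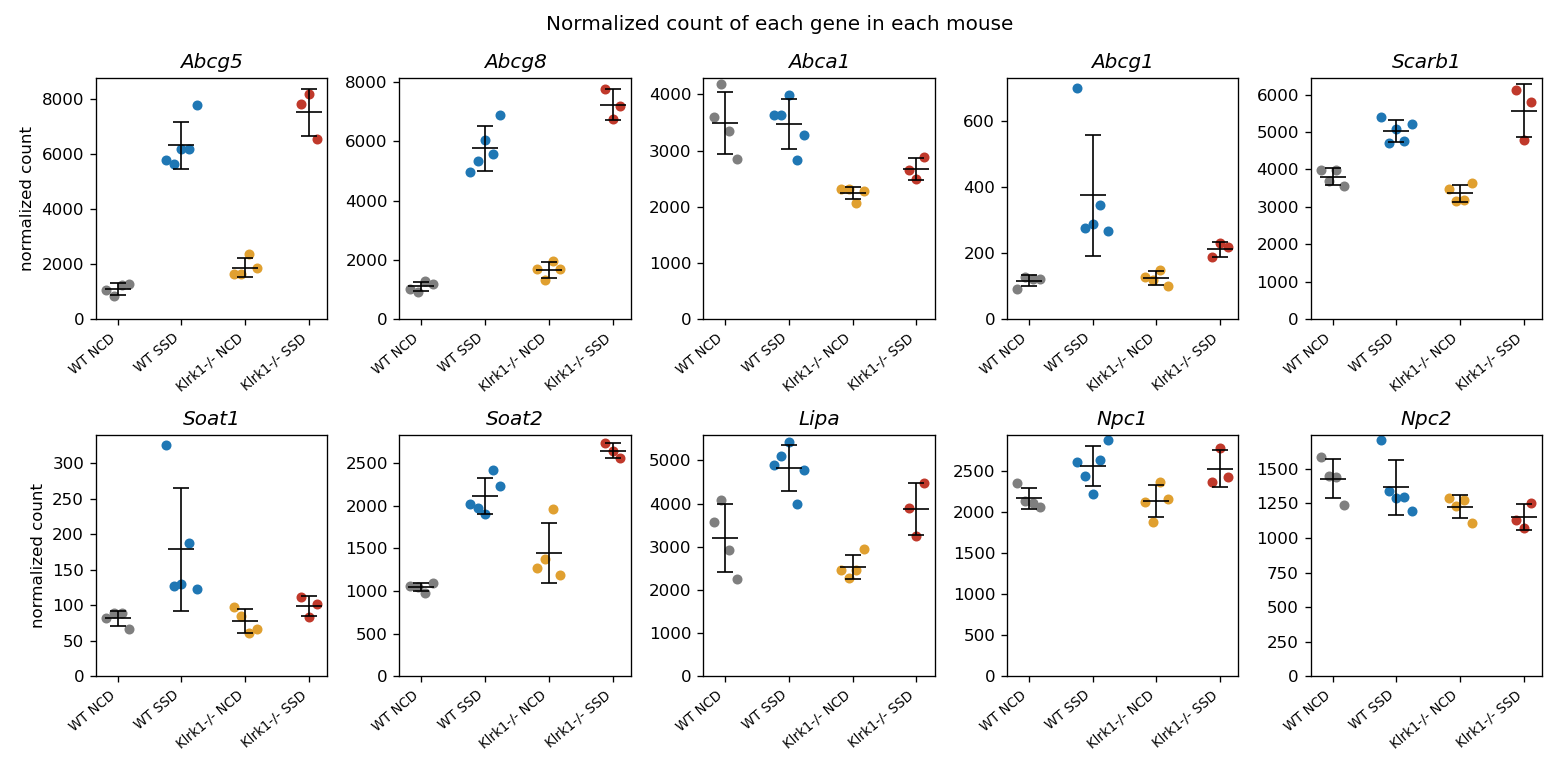
Normalized count of each gene in each mouse (vertical axes, starting at 0) for the 4 groups; points are mice, and the black bar and whiskers are the mean and SD. Abcg5 and Abcg8 do not overlap between diets in either genotype, and 1 WT SSD mouse is far above the others for Abcg1 (699) and Soat1 (326).

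The biliary pair lies head to head on chromosome 17 (GRCm39), with Abcg5 at 84965662 to 84990439 on the minus strand and Abcg8 at 84983730 to 85007761 on the plus strand. In GENCODE M39 the starts of their canonical transcripts are 12 bases apart, so the same stretch of DNA lies around both starts, and it is shown here because the genes moved together. RefSeq gives 2 windows for Abcg8. The one shown, from 250 bases before to 50 bases after its RefSeq start, matched GRCm39 exactly at chr17:84990299-84990598 on the plus strand and covers both canonical starts. The other, at 84983480 to 84983779, held none of the motifs searched. The RefSeq window of Abca1, the sterol transporter that did not follow the pair, matched chr4:53159846-53160145 on the minus strand and is shown for contrast. Capitals mark 4 motifs searched on both strands. The motif of GATA factors was searched as AGATAA. The core promoter box was searched as TATAAA. The E-box was searched as CACGTG. The LXR motif called DR4 was searched as a pair of AGGTCA copies 4 bases apart with at most 3 mismatches. No marked match overlapped another.
Abcg8 and Abcg5 promoter: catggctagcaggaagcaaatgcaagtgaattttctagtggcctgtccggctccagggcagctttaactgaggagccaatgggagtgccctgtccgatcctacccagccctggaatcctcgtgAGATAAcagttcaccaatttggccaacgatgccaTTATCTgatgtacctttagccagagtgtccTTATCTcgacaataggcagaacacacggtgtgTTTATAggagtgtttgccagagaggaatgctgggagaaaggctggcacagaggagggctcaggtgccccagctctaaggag
Abca1 promoter: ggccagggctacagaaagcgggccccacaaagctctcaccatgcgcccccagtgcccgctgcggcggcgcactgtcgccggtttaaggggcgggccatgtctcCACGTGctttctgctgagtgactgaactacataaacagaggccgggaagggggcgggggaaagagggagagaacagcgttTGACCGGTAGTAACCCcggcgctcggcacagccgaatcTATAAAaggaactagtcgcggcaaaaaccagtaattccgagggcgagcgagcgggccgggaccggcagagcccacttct

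The other genes but Npc1 lie, in GRCm39, at chr4:53030787-53159895 (Abca1, minus strand), chr17:31276649-31336962 (Abcg1, plus), chr5:125354151-125418158 (Scarb1, minus), chr1:156252095-156301901 (Soat1, minus), chr15:102058961-102071904 (Soat2, plus), chr19:34469718-34504874 (Lipa, minus) and chr12:84801336-84819926 (Npc2, minus). The shared window held the motif of GATA factors 3 times and the core promoter box once. That box was on the strand opposite to Abcg8, starting 31 bases before the Abcg8 RefSeq start but after its canonical start. On the strand of Abcg5 it read TATAAA, starting 84 bases before the Abcg5 RefSeq start. The Abca1 window held the core promoter box, the E-box and 1 DR4 match with 3 mismatches, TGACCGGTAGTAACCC, read from the opposite strand and starting 67 bases before the RefSeq start. Of 32851 RefSeq promoter windows of the same length, 11.2% held the motif of GATA factors, 13.6% the core promoter box, 7.15% the E-box and 21.9% such a DR4 match. With at most 2 mismatches 3.02% held one, and none of the windows of the 6 genes found in the RefSeq table (Abca1, Abcg5, Abcg8, Lipa, Npc2 and Soat1) did. These matches describe the letters in the windows and do not show binding.

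Abcg5 was at 1049, 840, 1247 and 1275 normalized counts in the 4 WT NCD mice and at 5794, 5655, 6192, 6193 and 7807 in the 5 WT SSD mice. All WT SSD mice were thus far above all WT NCD mice, and the rise was 5.77-fold (log2 2.53, SE 0.13, adjusted p = 1.19e-07). Klrk1-/- mice had 1643, 1631, 2364 and 1876 on NCD and 7831, 8190 and 6572 on SSD, again without overlap. The rise there was 4.04-fold (log2 2.01, SE 0.13, adjusted p = 7.55e-07).

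Abcg8, its partner, also rose in both genotypes. WT NCD mice had 1029, 931, 1293 and 1176, and WT SSD mice had 4958, 5334, 6049, 5558 and 6905, a 5.21-fold rise (log2 2.38, SE 0.12, adjusted p = 6.71e-08). Klrk1-/- mice had 1680, 1315, 1972 and 1712 on NCD and 7781, 6741 and 7196 on SSD, a 4.37-fold rise (log2 2.13, SE 0.12, adjusted p = 2.89e-07). The ratio of Abcg5 to Abcg8 counts, computed after the values were seen, stayed between 0.902 and 1.24 in all 16 mice. Its mean was 0.992 ± 0.078 (SD, n = 4) in WT NCD, 1.10 ± 0.058 (SD, n = 5) in WT SSD, 1.13 ± 0.12 (SD, n = 4) in Klrk1-/- NCD and 1.05 ± 0.15 (SD, n = 3) in Klrk1-/- SSD. None of the 4 comparisons of this ratio passed after adjustment over 8 ratio tests (exact permutation tests, two-sided, lowest adjusted p = 0.229). Exons of the 2 genes share 108 bases on opposite strands, 3.04% of Abcg5 and 2.81% of Abcg8. Whether counting used strand was not given in the sources used here.

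**Figure D2:**
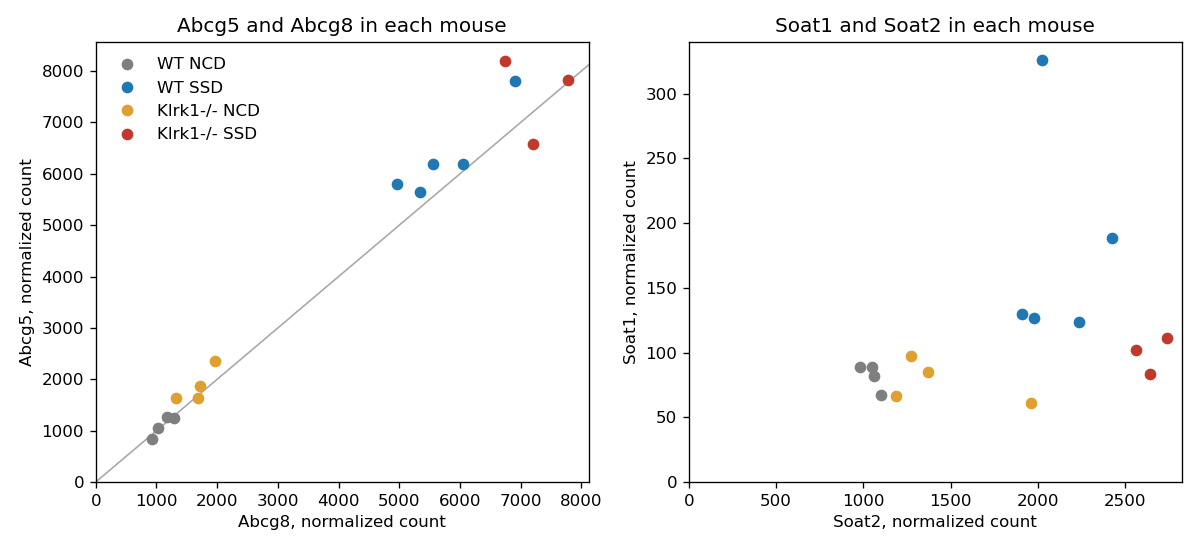
Left, normalized count of Abcg5 against Abcg8, and right, Soat1 against Soat2, 1 point per mouse coloured by group; the grey line marks equal counts. Abcg5 and Abcg8 lie close to that line in all mice, with ratios of 0.902 to 1.24, whereas Soat1 is highest in a WT SSD mouse (326) whose Soat2 (2023) is within its group.

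Abca1, the transporter that starts HDL formation, did not follow the pair. WT mice had 3602, 4179, 3342 and 2854 on NCD and 3631, 3641, 3990, 2826 and 3283 on SSD. The ranges overlapped almost entirely (log2 difference -0.0044, 95% interval -0.28 to 0.27, adjusted p = 0.982). In Klrk1-/- mice the values were 2314, 2311, 2077 and 2276 on NCD and 2649, 2487 and 2889 on SSD, a 1.19-fold rise without overlap (log2 0.25, SE 0.08, adjusted p = 0.0366). That call was held in 10 of 19 alternative analyses and was lost, for example, when any 1 of the 4 Klrk1-/- NCD mice was left out, and without both mice 2 and 3 (log2 0.22, adjusted p = 0.135).

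Abcg1, which passes cholesterol to already formed HDL, is a low-level gene in whole liver. WT NCD mice had 91.7, 128, 123 and 123, and WT SSD mice had 699, 275, 288, 346 and 269. All WT SSD mice were above all WT NCD mice, and the rise was 3.01-fold (log2 1.59, SE 0.25, adjusted p = 0.000612). WT SSD mouse 1 was far above its group, and without it the log2 rise was 1.34 (adjusted p = 1.61e-05). In Klrk1-/- mice the values went from 128, 118, 151 and 99.6 on NCD to 187, 232 and 218 on SSD. This rise was 1.72-fold (log2 0.78, SE 0.15, adjusted p = 0.00256), also without overlap.

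Scarb1, the HDL receptor of hepatocytes, rose by less. WT mice had 3993, 3698, 3998 and 3551 on NCD and 5404, 4716, 5083, 4769 and 5205 on SSD. The rise was 1.32-fold without overlap (log2 0.40, SE 0.08, adjusted p = 0.00265). Klrk1-/- values were 3468, 3157, 3177 and 3645 on NCD and 6125, 4784 and 5809 on SSD, a 1.65-fold rise (log2 0.72, SE 0.10, adjusted p = 0.000261).

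Soat2, the esterifying enzyme of hepatocytes, had 1062, 1052, 980 and 1099 in WT NCD mice and 2023, 1980, 1907, 2424 and 2236 in WT SSD mice. This was a rise with no overlap (2.01-fold, log2 1.01, SE 0.09, adjusted p = 8.06e-06). Klrk1-/- mice had 1273, 1372, 1959 and 1189 on NCD and 2739, 2642 and 2563 on SSD, a 1.86-fold rise (log2 0.90, SE 0.14, adjusted p = 0.000786). Klrk1-/- NCD mouse 3, with 1959, was within the range of WT SSD mice.

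Soat1, its macrophage counterpart, was the weakest of the 10 genes. WT NCD mice had 82.0, 88.6, 88.6 and 67.3, and WT SSD mice had 326, 127, 129, 188 and 123. The rise in WT mice was 2.03-fold without overlap (log2 1.02, SE 0.26, adjusted p = 0.0105). Without WT SSD mouse 1 it was 0.78 on the log2 scale (adjusted p = 0.00355). Klrk1-/- mice had 97.7, 84.6, 60.9 and 66.4 on NCD and 111, 83.5 and 102 on SSD, which overlapped (log2 difference 0.36, 95% interval -0.047 to 0.78, adjusted p = 0.166).

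Macrophage markers moved with Abcg1 and Soat1 in WT mice. Beside the marker counts of this paragraph, 17.3% of all genes rose and 17.6% fell in WT mice, and 13.4% and 16% in Klrk1-/- mice. In SSD against NCD, 4 of 10 macrophage and Kupffer cell markers and 6 of 8 recruited and lipid-associated macrophage markers rose in WT mice and none fell. Their counts in Klrk1-/- mice were 2 higher and 1 lower of 10, and 4 higher of 8. The summed level of the 10 markers ranged from 7592 to 8546 in WT NCD, from 9451 to 23880 in WT SSD, from 6675 to 7849 in Klrk1-/- NCD and from 7499 to 9148 in Klrk1-/- SSD. WT SSD mice 1 and 4, with the highest sums (23880 and 17130), were also the 2 highest for Abcg1 (699 and 346) and Soat1 (326 and 188). Stellate cell markers were also highest in WT SSD mouse 1, with a sum of 21090 against 5273 to 9594 in the other WT SSD mice, and 2 of 6 rose with the diet in WT and 4 of 6 in Klrk1-/- mice. In WT SSD mouse 1 neutrophil (277 against 102.9 to 146.6) and cholangiocyte sums (2997 against 896.5 to 2124) were also the highest of its group. The same held for T and NK cell markers (111.6 against 66.1 to 90.4). The hepatocyte sum of this mouse was the lowest (1328000 against 1600000 to 1765000), and its endothelium sum lay within its group. None of these macrophage markers was at 0 in a group mean. Of 7 hepatocyte markers, none rose with the diet, while 2 fell in WT and 3 in Klrk1-/- mice. Sinusoidal endothelium markers rose in 5 of 6 cases in WT and 2 of 6 in Klrk1-/- mice. The part of such cells in the Abcg1 and Soat1 results was not tested.

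**Figure D3:**
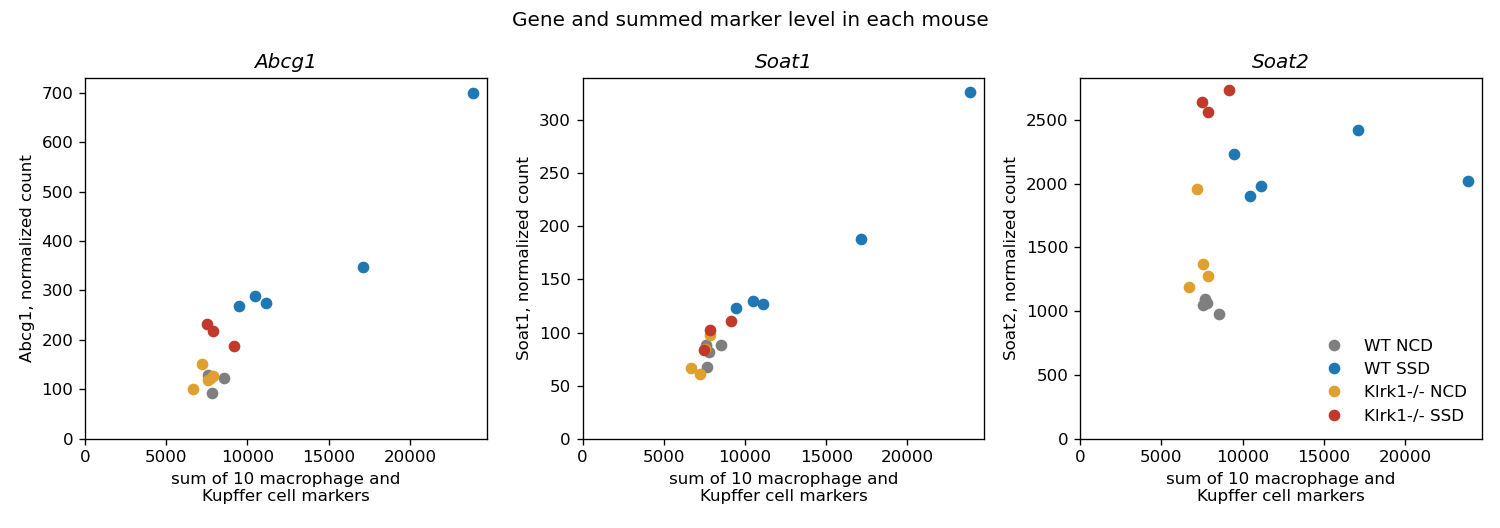
Normalized count of Abcg1, Soat1 and Soat2 (vertical axes) against the summed normalized count of 10 macrophage and Kupffer cell markers (horizontal axes), 1 point per mouse coloured by group. The WT SSD mouse with the highest sum (23880) is highest for Abcg1 and Soat1, whereas Soat2 is highest in Klrk1-/- SSD mice, whose sums are 7499 to 9148.

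Lipa, the lysosomal acid lipase, was at 3567, 4080, 2935 and 2261 in WT NCD mice and at 4884, 5095, 5422, 3982 and 4773 in WT SSD mice. The rise was 1.53-fold with 1 WT SSD mouse inside the NCD range (log2 0.62, SE 0.15, adjusted p = 0.00958). Klrk1-/- mice had 2460, 2271, 2470 and 2940 on NCD and 3907, 3260 and 4473 on SSD, a 1.52-fold rise without overlap (log2 0.61, SE 0.12, adjusted p = 0.0025).

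Npc1 and Npc2, which act after LIPA in lysosomal export, did not pass the threshold in either genotype. Npc1 had 2352, 2134, 2105 and 2062 in WT NCD and 2610, 2442, 2221, 2635 and 2881 in WT SSD (log2 difference 0.24, 95% interval 0.045 to 0.43, adjusted p = 0.0549). Klrk1-/- values were 2122, 1883, 2359 and 2159 on NCD and 2365, 2783 and 2428 on SSD (log2 difference 0.25, 95% interval 0.039 to 0.45, adjusted p = 0.07). Npc1 thus lay just short of the threshold in both, and it passed as higher in 6 of 20 alternatives in WT and 3 of 19 in Klrk1-/- mice. Npc2 had 1582, 1449, 1438 and 1240 in WT NCD and 1709, 1339, 1288, 1297 and 1198 in WT SSD (log2 difference -0.069, 95% interval -0.31 to 0.17, adjusted p = 0.662). On NCD, Klrk1-/- mice had 1290, 1234, 1273 and 1108, and on SSD they had 1127, 1072 and 1255 (log2 difference -0.092, 95% interval -0.29 to 0.10, adjusted p = 0.466). Both groups overlapped for Npc2 in both genotypes. Npc1 lies at chr18:12322749-12369457 (GRCm39, minus strand). Part of each gene's exons is also exonic on the opposite strand, 9.52% of Npc1 with Rmc1 and 9.67% of Npc2 with Isca2.

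Counted by overlap, 6 of the 10 genes had no WT SSD mouse within the WT NCD range, against 29.0% of all genes tested, and 8 of 10 had none in Klrk1-/- mice, against 37.6%. Exact two-sided permutation tests in WT mice gave p = 0.0159 for these 6 genes, the smallest p that 5 against 4 mice allow, and p = 0.0317 for Lipa and Npc1. With 3 against 4 mice the smallest exact p is 0.0571, so the Klrk1-/- diet comparison could not reach 0.05 by that test. The deposited scaling matters for the weak members. When every mouse was scaled to the same total instead, the median of all genes shifted by 0.34 in WT and 0.25 in Klrk1-/- mice, and the share of calls that were higher moved from 49.6% to 89.8% and from 45.5% to 85.7%. The shift between genotypes on SSD was -0.12, with 18.9% of calls higher in place of 42%. Under that scaling all of the 10 genes but Npc2 passed as higher with the diet in each genotype. Over all genes, 6341 then passed as higher in WT and 4832 in Klrk1-/- mice, against 2265 and 1723 with the deposited scaling. Abca1 in WT mice was then at 0.34 on the log2 scale, at the shifted median.

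**Figure D4:**
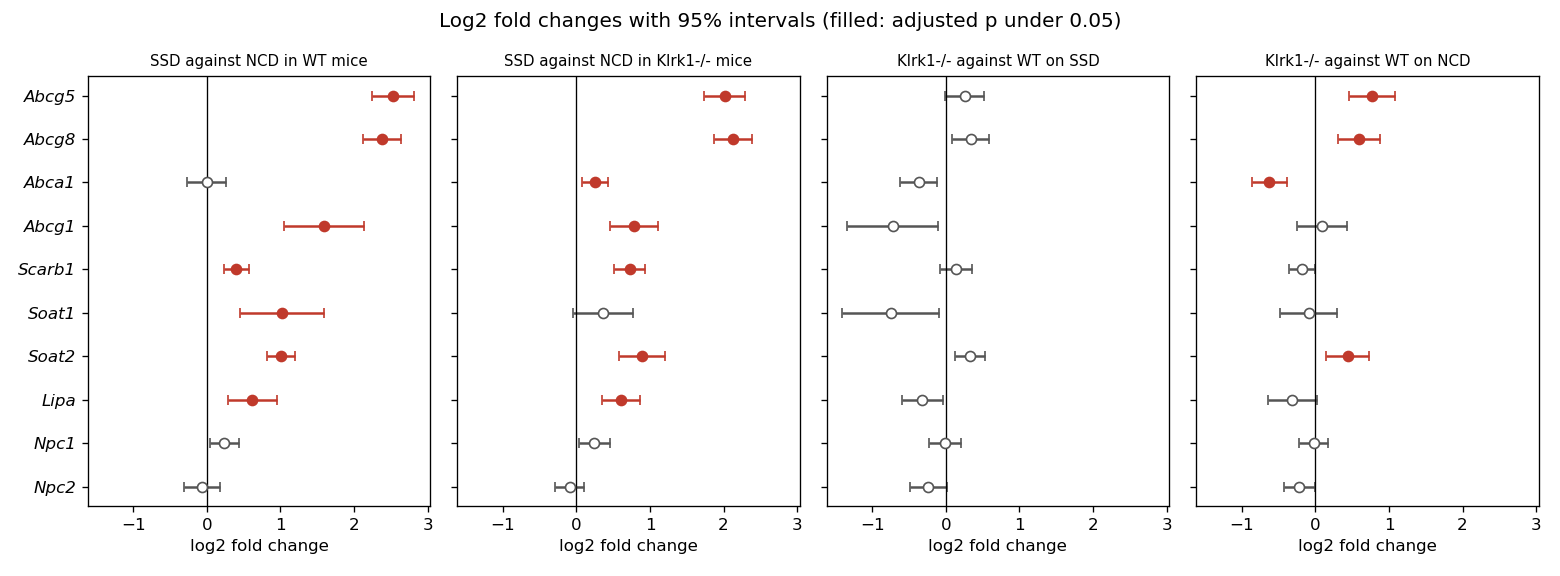
Log2 fold change of each gene (horizontal axes) with its 95% interval in the 4 pairwise comparisons; filled points passed an adjusted p of 0.05. Abcg5 and Abcg8 are farthest from 0 with the diet in both genotypes (2.01 to 2.53), and none of the 10 genes passed between genotypes on SSD.

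On NCD the genotypes already differed in the same biliary pair. Abcg5 and Abcg8 were higher in Klrk1-/- than in WT mice by 0.77 (SE 0.15, adjusted p = 0.00689) and 0.59 (SE 0.13, adjusted p = 0.0145) on the log2 scale. Soat2 was higher by 1.36-fold (log2 0.44, SE 0.13, adjusted p = 0.0473). Abca1 was lower, at 2244 ± 113 (SD, n = 4) against 3494 ± 552 (SD, n = 4), a log2 difference of -0.63 (SE 0.11, adjusted p = 0.00409). Thus 3 of the 10 genes were higher and 1 lower, where 13.1% of 12845 genes passed, 6.41% as higher and 6.66% as lower.

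For these 4 genes no Klrk1-/- NCD mouse was within the WT NCD range, against 19.3% of all genes without overlap, and the exact two-sided permutation p was 0.0286 for each, the smallest that 4 against 4 mice allow. Abca1, Abcg5 and Abcg8 kept their calls with any 1 mouse left out. Without Klrk1-/- NCD mice 2 and 3, an alternative chosen after the data were seen that leaves 2 mice in the group, only Abcg8 passed (log2 0.63, adjusted p = 0.0428). Abcg5 was then at 0.69 (adjusted p = 0.0564), Abca1 at -0.59 (adjusted p = 0.0607) and Soat2 at 0.23 (adjusted p = 0.349), and the count over all genes went from 1679 to 240. Soat2 kept its call in 11 of 20 alternatives. The other members gave log2 differences of -0.31 for Lipa (adjusted p = 0.187), -0.22 for Npc2 (adjusted p = 0.142), -0.18 for Scarb1 (adjusted p = 0.164), -0.092 for Soat1, 0.090 for Abcg1 and -0.025 for Npc1. Lipa passed in 2 of 20 alternatives, with the replicate block (-0.54, adjusted p = 0.0164) and without WT NCD mouse 5 (-0.47, adjusted p = 0.0248).

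On SSD, where the study asked what NKG2D does in the fatty liver, none of the 10 genes differed between genotypes at an adjusted p under 0.05 in limma, against 2.9% of 13116 genes. At an unadjusted p under 0.05 there were 6 (Abca1, Abcg1, Abcg8, Soat1, Soat2 and Lipa), against 22.9% of all genes. edgeR called 0 and DESeq2 called 2, Abca1 and Soat2, where it called 1220 genes in all against 381 in limma. Abcg1 was at 187 to 232 in Klrk1-/- SSD mice, under all WT SSD mice (log2 -0.72, SE 0.28, adjusted p = 0.167). Soat1 was at 83.5 to 111, also under all WT SSD mice (log2 -0.75, SE 0.30, adjusted p = 0.176). Soat2 was at 2563 to 2739, above all WT SSD mice (log2 0.33, SE 0.09, adjusted p = 0.0785).

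These 3 genes without overlap between genotypes compare with 17.9% of all genes, and each had an exact two-sided permutation p of 0.0357, the smallest that 3 against 5 mice allow. Per kilobase, Soat2 was 28.6 ± 4.1 (SD, n = 3) times as high as Soat1 in Klrk1-/- SSD mice and 14.2 ± 4.7 (SD, n = 5) times in WT SSD mice, a ratio computed after the values were seen (exact permutation p = 0.0357, adjusted p = 0.229 over 8 ratio tests). With canonical transcript lengths the ratios were 95.8 ± 14 (SD, n = 3) and 47.7 ± 16 (SD, n = 5), so their size depends on the length used. Without WT SSD mouse 1 the Abcg1 difference was -0.47 and passed (adjusted p = 0.0491), and the Soat1 difference was -0.50 (adjusted p = 0.117). In this comparison, with all mice, 1.22% of all genes were higher and 1.68% lower in Klrk1-/- mice. Of 10 macrophage and Kupffer cell markers 2, Cd68 and Mpeg1, were lower and none was higher. None of the 8 recruited and lipid-associated macrophage markers passed. The log2 differences of these 8 ran from -3.09 for Gpnmb (adjusted p = 0.0586) to 0.021 for Cd9, and all but Cd9 were negative.

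The ranges of the remaining genes overlapped between genotypes on SSD. The log2 difference was -0.37 for Abca1 (95% interval -0.62 to -0.12, adjusted p = 0.0986), 0.34 for Abcg8 (95% interval 0.088 to 0.59, adjusted p = 0.123) and 0.25 for Abcg5 (95% interval -0.013 to 0.52, adjusted p = 0.24). Lipa gave -0.32 (95% interval -0.60 to -0.046, adjusted p = 0.167), Npc2 -0.24, Scarb1 0.14 and Npc1 -0.017. Abca1 was lower in Klrk1-/- than in WT mice in both diets by its means, but passed on NCD only, and the diet by genotype interaction for Abca1 was 0.26 (95% interval -0.084 to 0.60, adjusted p = 0.424).

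Whether the diet response itself differed between genotypes was tested by the interaction over all 16 mice. None of the 10 genes passed in limma, edgeR or DESeq2, where 0.88% of 13068 genes passed in limma, and 3 had an unadjusted p under 0.05, against 17.3% of all genes. Abcg1 rose by 0.81 less in Klrk1-/- mice on the log2 scale (interaction -0.81, SE 0.34, adjusted p = 0.232, and -0.56 with adjusted p = 0.19 without WT SSD mouse 1) and Abcg5 by 0.52 less (interaction -0.52, SE 0.21, adjusted p = 0.213). Scarb1 rose by 0.32 more (interaction 0.32, SE 0.12, adjusted p = 0.201). These differences were therefore not shown. The 4 pairwise comparisons share groups of mice, so their values are not independent of each other.

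Levels were compared between genes as normalized counts per kilobase of the gene length in the deposited table. On NCD, WT liver had most Scarb1 (2626 ± 153, SD, n = 4), then Lipa (1549 ± 380) and Npc1 (785 ± 47). Abcg5 (766 ± 140), Npc2 (652 ± 64), Abca1 (633 ± 100), Soat2 (547 ± 26) and Abcg8 (397 ± 57) followed, and Abcg1 (59.0 ± 8.4) and Soat1 (40.4 ± 5.0) came last. From Npc1 down to Soat2 each gene's range overlapped the next. In WT SSD mice Abcg5 came first (4395 ± 598, SD, n = 5), above Scarb1 (3470 ± 201), Lipa (2331 ± 258), Abcg8 (2065 ± 270), Soat2 (1102 ± 111) and Npc1 (928 ± 89). Lipa overlapped Abcg8, and Soat2 overlapped Npc1. Abca1 (630 ± 80) and Npc2 (624 ± 91) overlapped each other, and Abcg1 (191 ± 93) and Soat1 (88.5 ± 43), which also overlapped, stayed last.

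In Klrk1-/- NCD mice Scarb1 led (2317 ± 163, SD, n = 4), followed by Abcg5 (1305 ± 238), which overlapped Lipa (1223 ± 138). Npc1 (773 ± 71), Soat2 (755 ± 182) and Abcg8 (599 ± 97) each overlapped the next, down to Npc2 (560 ± 38), which lay apart from Abca1 (407 ± 20). Abcg1 (63.0 ± 11) and Soat1 (38.3 ± 8.4) came last. In Klrk1-/- SSD mice the order was Abcg5 (5230 ± 590, SD, n = 3), Scarb1 (3840 ± 483), Abcg8 (2596 ± 187), Lipa (1872 ± 293), Soat2 (1381 ± 46), Npc1 (916 ± 82), Npc2 (526 ± 43), Abca1 (485 ± 37), Abcg1 (108 ± 12) and Soat1 (48.9 ± 6.9). There only Npc2 and Abca1 overlapped. With the longer canonical transcripts of GENCODE M39, chosen after the data were seen, Scarb1 stayed first on NCD and Abcg5 first on SSD, but Abcg5 and Scarb1 then overlapped on SSD. The largest move was Soat2 in WT NCD mice, from place 7 to place 3.

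**Figure D5:**
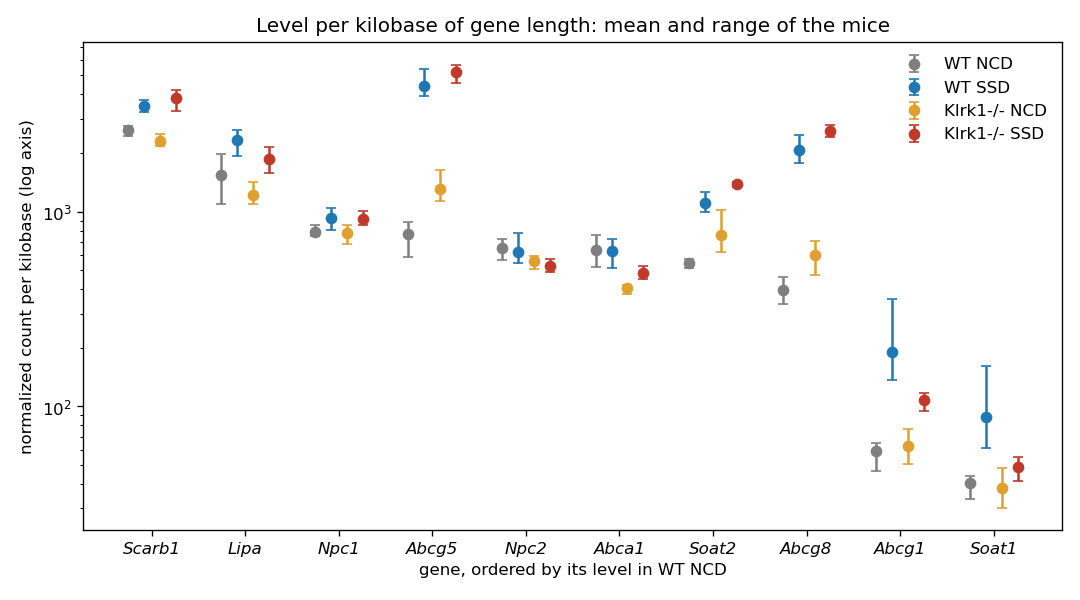
Normalized count per kilobase of gene length (log axis) for the 10 genes, ordered by their level in WT NCD; points are group means and bars run from the lowest to the highest mouse. Abcg5 moves from 766 to 4395 in WT mice with SSD and passes Scarb1, and Abcg1 and Soat1 are lowest in all 4 groups.

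Other genes of sterol handling moved in both directions with the diet. The list counts below stand beside 17.3% higher and 17.6% lower of all genes in WT mice, and 13.4% and 16% in Klrk1-/- mice. The lists were chosen with earlier results of these data known, so their counts are a description. In the list of the SREBP2 pathway, which senses low sterol and drives cholesterol synthesis and uptake, 11 of 12 genes fell and 1 rose in WT mice, and 11 of 12 fell in Klrk1-/- mice. In WT mice Sqle, an enzyme of cholesterol synthesis, fell by 6.83 on the log2 scale (2590 to 22.5 normalized counts, adjusted p = 2.16e-09) and Insig2, a sterol-dependent brake on the pathway, rose by 0.36 (adjusted p = 0.0381). Of 12 other LXR receptors and targets, 3 rose and 3 fell in WT mice, and 4 rose and 4 fell in Klrk1-/- mice. The WT extremes were Mylip, which promotes degradation of the LDL receptor (log2 1.40, 94.5 to 253, adjusted p = 1.62e-05), and the fatty acid synthase gene Fasn (log2 -1.94, adjusted p = 0.000411).

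Among 13 efflux and HDL partners tested, 1 rose and 4 fell in WT mice, and 1 rose and 3 fell in Klrk1-/- mice. Abcb4, which puts phospholipid into bile, rose most in WT mice (log2 1.20, 3830 to 8823 normalized counts, adjusted p = 1.95e-06) and the HDL apolipoprotein gene Apom fell most (log2 -1.01, adjusted p = 6.92e-05). Of 11 sterol uptake genes tested, 6 rose and 3 fell in WT mice, and 3 rose and 2 fell in Klrk1-/- mice. The lipoprotein receptor gene Vldlr rose most in WT mice (log2 2.59, adjusted p = 7.56e-05). In intracellular sterol transfer, 2 of 17 genes rose and 4 fell in WT mice, and 5 rose and 5 fell in Klrk1-/- mice. Gramd1b, which carries plasma membrane cholesterol to the endoplasmic reticulum, was the highest in WT mice (log2 1.33, adjusted p = 0.00169) and the sterol carrier Stard4 the lowest (log2 -2.32, adjusted p = 3.43e-07).

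Of 11 ester and droplet hydrolases and their partners, 3 rose and 5 fell in WT mice, and 5 rose and 4 fell in Klrk1-/- mice. The WT extremes were the monoglyceride lipase gene Mgll (log2 0.94, adjusted p = 0.00157) and the carboxylesterase gene Ces3b (log2 -2.75, adjusted p = 7.45e-05). Of 9 genes of other esterification, 1 rose and 5 fell in WT mice, with Mboat7 (log2 0.25, adjusted p = 0.028) and Acat2 (log2 -1.45, adjusted p = 3.86e-06) at the ends. In Klrk1-/- mice 1 rose and 4 fell. Acat2 makes acetoacetyl-CoA and is not a cholesterol esterifying enzyme despite its name.

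Among 26 lysosomal membrane proteins and enzymes, 6 rose and 1 fell in WT mice and 6 rose and 2 fell in Klrk1-/- mice, with the tetraspanin gene Cd63 (log2 2.59, adjusted p = 4.60e-05) and the ganglioside activator gene Gm2a (log2 -0.68, adjusted p = 7.45e-05) at the WT extremes. Of 10 lysosomal regulators 3 rose and none fell in each genotype, led in WT mice by Flcn, a regulator of nutrient signalling at the lysosome (log2 0.81, adjusted p = 0.00391). Over all genes 34.9% passed in WT and 29.4% in Klrk1-/- mice in either direction. Whether either lysosomal list departs from the shares of all genes was not tested.

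Between genotypes on SSD few of these genes passed, where 1.22% of all genes were higher and 1.68% lower. The LXR list had 1 lower, Cyp7a1, the rate-limiting enzyme of bile acid synthesis (log2 -1.42, adjusted p = 0.0114). In the uptake list the macrophage scavenger receptor gene Marco was lower (log2 -2.45, adjusted p = 0.0138). Sterol transfer had Stard5 higher (log2 0.32, adjusted p = 0.0443), the lysosomal list had Gusb lower (log2 -0.67, adjusted p = 0.0461), and Insig1 of the SREBP2 list was higher (log2 0.78, adjusted p = 0.0398), a gene named after its value was seen. The efflux, hydrolysis, esterification and lysosomal regulator lists had none. Already on NCD the WT and Klrk1-/- means were 2410 (SD 1466) and 750 (SD 177) for Cyp7a1. They were 117 and 70.7 for Marco, 514 and 341 for Gusb, and 2691 and 2704 for Stard5. On NCD the lists had, as higher and lower, 1 and 2 for efflux, 0 and 2 for LXR, 2 and 2 for uptake, 0 and 2 for transfer, 0 and 3 for hydrolysis, 0 and 2 for esterification, 3 and 3 for the lysosomal list, 2 and 1 for its regulators and 2 and 1 for SREBP2, where 6.41% of all genes were higher and 6.66% lower, and where calls over all genes went from 1679 to 240 without Klrk1-/- NCD mice 2 and 3. No gene of any of these lists passed in the interaction. Of the 10 macrophage and Kupffer cell markers, 1 passed it with a negative value, against 0.559% of all genes.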

How the data were processed

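Total RNA of whole liver from 16 mice was sequenced as single reads of 100 bases. Per the study's methods, the authors checked reads with FastQC, mapped them to GRCm39 with STAR, counted them per gene with FeatureCounts on GENCODE M26 and used DESeq2 for fold changes. Versions are not given in the sources used here. The labels name an mRNA library kit and the methods a total RNA kit. The deposited signal is a normalized count, reads divided by 1 factor per mouse, and every value was a whole multiple of 1 step per mouse (tolerance 0.01), so depth was known (19892025 to 28936707 reads on genes). The deposited table also gives gene length in bases (a value of another kind) and GC content as a fraction, the latter unused here. The authors' own fold change and p-value columns were not used.

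log2(normalized count + 1) was tested with the trend method of limma 3.58.1 (R 4.3.3) on genes with a mean of at least 10 over the mice of the model, with Benjamini-Hochberg adjustment over all genes tested and a call at an adjusted p under 0.05. Each comparison used only its own mice, and the interaction used all 16. Fold changes are on this log2 scale. Every member passed the filter in every comparison. Exact two-sided permutation tests used SciPy 1.17.1. Alternatives were edgeR 4.0.16 and DESeq2 1.42.0 on the recovered reads, pseudocounts of 0.5 and 10, no minimum or 50, other scalings, fold limits of 1.5 and 2, robust variances, a replicate block, 1 model of all groups and leaving out each mouse. The fit was tested on simulated data. The labels do not tell whether replicate numbers pair mice, and 4 of 20 same-numbered pairs had deviations correlated above 0.1 (range -0.316 to 0.246), so no block entered. P-values measure the spread between these mice. No 2 libraries of the same group were alike within counting noise.

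The members and gene lists were chosen with earlier results of these data known. All 10 members were named. From each list, the called genes with the highest and lowest fold change in the WT diet comparison, and between genotypes on SSD, were named, except 1 gene that is not reported here. Promoters came from RefSeq (GRCm38.p6) and were placed on GRCm39 by exact match. Abcg1, Scarb1, Soat2 and Npc1 had no entry.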

Additional observations from a re-analysis of the deposited data

Results flagged for a closer look

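In 30 groups of 4 or 5 mice (10 genes in the 3 groups large enough), 5 values had a mouse farther from the others than Dixon's limit at 95%, a limit that chance passes in about 1 of 20 groups. In WT SSD these were the highest mouse for Abcg1 (699), for Abcg5 (7807) and for Npc2 (1709). For Abcg1 and Npc2 that was mouse 1, and for Abcg5 it was mouse 5. In WT NCD it was the lowest mouse for Abcg1 (91.7). In Klrk1-/- NCD it was the lowest mouse for Abca1 (2077), which was mouse 3. Of these, leaving out WT SSD mouse 1 moved the Abcg1 call between genotypes on SSD (adjusted p = 0.0491), and leaving out Klrk1-/- NCD mouse 3 lost the Abca1 call with the diet in Klrk1-/- mice. No member passed the test of a difference in diet response between genotypes.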

How the results depend on the processing

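The diet results of Abcg1, Abcg5, Abcg8, Scarb1, Soat2 and Lipa in both genotypes, and of Soat1 in WT mice, kept their direction and call in all alternatives that kept the threshold on p alone (20 in WT, 19 in Klrk1-/- mice). With a fold limit of 2, 2 members passed in SSD against NCD in Klrk1-/- mice and 0 in Klrk1-/- against WT on NCD. With Klrk1-/- NCD mice 2 and 3 both left out, 1 member passed between genotypes on NCD. Between genotypes on SSD, DESeq2 gave 2 members, the replicate block gave 2 (Abca1 and Soat2, over 3 shared numbers, not known to pair the mice), and leaving out 1 mouse gave 0 to 1. The block moved the count of all genes from 4568 to 2974 in the WT diet comparison, from 381 to 710 between genotypes on SSD and from 115 to 51 in the interaction. DESeq2 gave 1220 between genotypes on SSD and 460 in the interaction, 1 model of all groups gave 957 between genotypes on SSD, and the same total gave 7060 in the WT diet comparison. Without Klrk1-/- NCD mice 2 and 3, 12 genes passed the interaction. Leaving out 1 mouse gave 45 genes (without Klrk1-/- SSD mouse 1) to 717 (without WT SSD mouse 1) between genotypes on SSD, 717 between genotypes on NCD without Klrk1-/- mouse 3, 37 (without Klrk1-/- SSD mouse 3) to 187 (without WT SSD mouse 5) in the interaction, and 2397 in the Klrk1-/- diet comparison without Klrk1-/- SSD mouse 1.

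Signs changed for small differences, all but 1 of them uncalled in either analysis. In the WT diet comparison Abca1 was at 0.34 with the same total (adjusted p = 0.0427), 0.20 with quantile normalization and 0.068 with the replicate block, and from -0.097 to 0.086 with 1 mouse left out. Npc2 was at 0.28 and 0.025 under the first 2, and at 0.17 with the same total in Klrk1-/- mice. Npc1 between genotypes on SSD was at 0.058 with the block and -0.089 to 0.029 with 1 mouse left out. Between genotypes on NCD, leaving out 1 mouse gave -0.019 to 0.19 for Abcg1, -0.075 to 0.033 for Npc1 and -0.21 to 0.013 for Soat1, and leaving out Klrk1-/- mice 2 and 3 gave -0.031 for Abcg1. In the interaction, Npc1 was at -0.080 with the same total and -0.067 with quantile normalization, Lipa at 0.034 with edgeR, 0.022 with DESeq2 and 0.13 with the block, and leaving out both mice gave 0.098 for Soat2, -0.0031 for Npc1 and 0.011 for Npc2. With 1 mouse left out the interaction ranged from -0.064 to 0.059 for Npc1, -0.13 to 0.15 for Lipa, -0.087 to 0.061 for Npc2 and -0.19 to 0.045 for Soat2. The cause was not tested. Depth limits Soat1 most, with 49 reads at its lowest, and intervals cover these mice only.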
